A study of Mus musculus with 4 samples.

Results

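Molecular chaperones were followed across the first step of mouse blood formation, from the hematopoietic stem cell (HSC) to the multipotent progenitor (MPP). The heat shock protein (HSP), DNAJ and CCT families were taken as every Affymetrix Mouse Genome 430 2.0 probe set that the platform annotation assigns to exactly 1 gene with a symbol starting with Hspa, Hspb, Hspd, Hspe, Hsph, Hsp90, Dnaja, Dnajb or Dnajc, or being Cct and a number, or Tcp1. That rule, which uses no measured value, gave 201 of the 45101 probe sets on the array, for 82 of 18194 annotated genes. The HSC group held 2 samples of CD34(-)KSL cells and the MPP group 2 samples of CD34(+)KSL cells, both sorted from mice of C57BL/6 background without a stated treatment or age. KSL cells carry c-Kit and Sca-1 and lack the markers of mature lineages. Each sample was read on 1 array after 2 cycles of amplification of RNA equivalent to 3000 cells. The replicates are labelled biological, but separate animals are not stated, and p-values cover only how these 4 samples vary, which may be technical.

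Chaperones bind proteins that are not yet folded and keep them from aggregating. HSP70 proteins hold short hydrophobic stretches of a client in a cycle driven by ATP, DNAJ proteins bring the clients and start that cycle, and nucleotide exchange factors reset it. HSP90 finishes selected clients such as kinases, while the CCT ring and the mitochondrial HSP60 barrel fold a protein inside a closed chamber. Small HSPs hold clients without ATP. Adult HSC divide rarely and are known for a lower rate of protein synthesis than the progenitors they give rise to.

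Intensities were compared as log2(intensity + 6.01), HSC minus MPP, in limma over all probe sets outside the dimmest 40%, with Benjamini-Hochberg adjustment over all 27022 of them and a threshold of 0.05. A probe set past that threshold is termed called, signal is in arbitrary intensity units, and differences are on the log2 scale. Cd34 and the stem cell markers followed the labels. Of 9 measured HSC markers, including Procr, Slamf1 and Vwf, 8 were called higher in HSC, and Cd34, Flt3 and Cd48 were all called lower. Kit, the gene of the sort antigen c-Kit, was called higher at 0.65. Among markers of other cells, summed signal was 75.2 and 152 units in HSC and 131 and 224 units in MPP for 8 lymphoid genes, with Cd3e, Cd3g, Cd4, Cd79a and Ebf1 below the floor on all 4 arrays. The floor was the highest signal of 27 bacterial control probe sets, 13.6 to 16.9 units by array. For 8 granulocyte and monocyte genes the sums were 1264 and 1054 against 4851 and 5951 units, on the MPP arrays mostly Mpo, for 4 erythroid genes 212 and 252 against 76.8 and 69.0, for 5 megakaryocyte genes 1053 and 794 against 544 and 385, and for 6 stromal and endothelial genes 247 and 310.1 against 137 and 100.2. Of those tested, 1 of 3 lymphoid genes was called lower, 1 of 5 granulocyte and monocyte genes higher and 2 lower, and 1 of 2 erythroid, 2 of 5 megakaryocyte and 2 of 4 stromal and endothelial genes higher. The cell division markers Mki67, Top2a and Cdk1 were all called lower in HSC and, summed, read 1405 and 1169 units in HSC and 6990.0 and 5873 units in MPP. HSC replicate 2 stood apart in the 3' to 5' signal ratio of its actin control (9.42, against 4.99 to 5.26). The part of cell division, other cell types and RNA quality in the chaperone differences was not tested. In sorted pools, fewer cells that carry a transcript and less of it per cell cannot be told apart.

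Few chaperone genes differed between HSC and MPP by the test, and most of those that did were lower in HSC. Among them were Hspa5, the HSP70 of the endoplasmic reticulum (ER), Hspd1, the mitochondrial HSP60, the cytosolic J proteins Dnaja1 and Dnaja2, and the histone chaperone Dnajc9. The J protein genes Dnaja4, Dnajb4 and Dnajb14 were higher. Of the 201 chaperone probe sets 158 were tested. Of these 12 were called lower in HSC (7.59%, against 4.65% of all tested probe sets) and 4 higher (2.53%, against 5.96%). By gene, read on the brightest of its tested probe sets, 8 of 70 were called lower (11.4%, against 5.9% of all genes) and 3 higher (4.29%, against 7.71%). The 43 untested probe sets left 12 genes without a value, among them Hspa1a, Hspa1l, Hspa12a, Hspb3, Hspb9, Cct6b and Cct8l1, and none of the 43 rose above the floor on more than 2 arrays.

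The counts were also set against signal level. Summed over the 201 probe sets, chaperone signal was 95443 and 109506 units in HSC and 126312 and 117858 units in MPP. Over all tested probe sets the median difference was 0.11, but it was -0.098 in the brightest 10% of probe sets by mean level, where 12.5% of probe sets were called lower and 6.55% higher. Of the 44 chaperone probe sets in that bright class 10 were called lower (22.7%) and none higher, with a median of -0.33, and 39 of the 44 lay below 0, against 59.5% of all probe sets that bright. Both HSC arrays lay under both MPP arrays for 27 of the 44, against 40.4% of all probe sets that bright. Over all levels they did so for 53 of 158 chaperone probe sets, against 21.3% of all tested probe sets. They lay above for 32 of the 158, against 33.3% of all tested probe sets. With equal array medians the median of all tested probe sets became -0.13 and the chaperone calls 33 lower (20.9%, against 8.80% of all probe sets) and 1 higher (0.633%, against 3.77%). After quantile normalization that median was -0.01 and the calls 12 lower (7.59%, against 4.56%) and 2 higher (1.27%, against 4.90%). The signs of the 16 called probe sets were the same in every alternative that tested them. Without HSC replicate 1, 12 of the 16 were still called, without HSC replicate 2, 14, without MPP replicate 1, 3, and without MPP replicate 2, 2. With 1 MPP array the spread comes from the HSC arrays alone. With no filter on dim probe sets 7 of the 16 were called, those of Dnaja2, Dnajb4, Dnajc2, Dnajc6, Dnajc9, Cct4 and, at -0.79, Hsp90aa1. With a prior variance not fitted to signal level 1 was called, a Cct4 probe set.

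**Figure D1:**
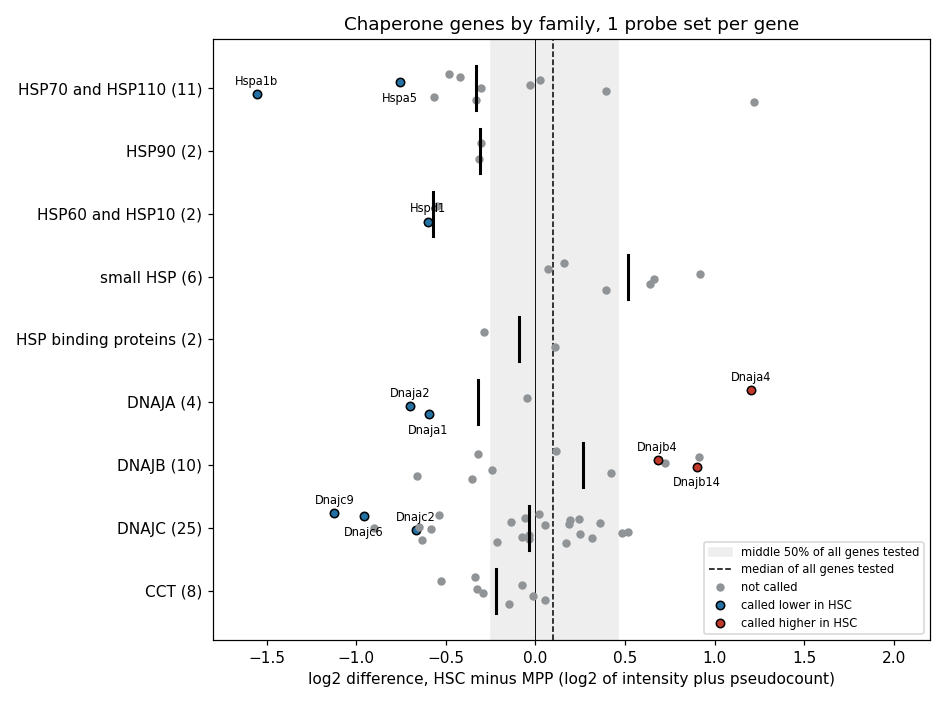
Log2 difference, HSC minus MPP, for each of the 70 tested chaperone genes, by family with the number of genes in brackets, with black bars for family medians and a grey band for the middle 50% of all genes tested. Medians lie above 0 for small HSP and DNAJB genes and below 0 for the other families, and 8 genes called lower (blue) and 3 called higher (red) are named.

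The HSP70 and HSP110 genes, the core of the folding cycle, had a median difference of -0.33 over 11 tested genes, against 0.10 over all genes. The sign of every family median was the same with equal array medians and after quantile normalization. Hspa5 and Hspa1b were called lower (18.2%, against 5.9% of all genes) and none was called higher (against 7.71%). Of the 11, 8 lay below 0, against 42.3% of all genes. In the brightest 10%, which held 5 of the 11, 59.5% of all probe sets lay below 0. Hspa5, also known as BiP, is the main chaperone of the ER lumen. It read 2574 and 3172 units in HSC and 4946 and 4719.7 units in MPP. Both HSC arrays lay below both MPP arrays, and Hspa5 was 1.69-fold lower in HSC (log2 difference -0.76, SE 0.16, limma adjusted p = 0.0115). Its other tested probe sets lay at -0.56 (limma adjusted p = 0.111) and -0.38 (limma adjusted p = 0.275), so all 3 were below 0. Without MPP replicate 1 or 2 the call ended, at -0.72 (adjusted p = 0.140) and -0.79 (adjusted p = 0.110).

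Hspa1b, a heat-inducible cytosolic HSP70, read 41.0 and 128 units in HSC and 171 and 303 units in MPP. The HSC arrays differed from each other by about as much as the groups did, HSC replicate 2 being nearer to MPP, and the groups did not overlap. It was 2.94-fold lower in HSC (log2 difference -1.56, SE 0.43, limma adjusted p = 0.0454). The call ended without HSC replicate 1, at -0.80 (adjusted p = 0.101), without MPP replicate 2, at -1.15 (adjusted p = 0.195), and with a pseudocount of 1, at -1.63 (adjusted p = 0.0553). It remained without HSC replicate 2, at -2.31 (adjusted p = 0.000190). The other probe sets of the gene read 19.8 and 26.8 against 36.5 and 72.8 units and 10.4 and 8.93 against 19.8 and 60.2 units, both without a call. Hspa1a, its near-identical neighbour, read at most 19.7 units and was not tested, and signal of the pair cannot be assigned to 1 of them with certainty.

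Immediate early genes, which respond to the handling of cells, were read beside Hspa1b. Jun read 193 and 233 units in HSC and 295 and 939.8 units in MPP (-1.29, limma adjusted p = 0.0717), and Fos 2948 and 5479 units in HSC and 3751 and 6533 units in MPP (-0.30, limma adjusted p = 0.586). Summed over 12 such genes, signal was 12679 and 21894 units in HSC and 9778 and 21345 units in MPP. The sum thus differed more between the arrays of a group than between the groups. For 11 of the 12 genes replicate 2 read above replicate 1 in both groups (23.4% of all genes), as it did for Hspa1b. Of the 12, Egr1 was called, at 1.31 (limma adjusted p = 0.0372), higher in HSC and so opposite to Hspa1b, a call that ended without HSC replicate 2 or MPP replicate 1. The part of cell handling in the Hspa1b difference was not tested.

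Hspa8, the constitutive cytosolic HSP70, was not called. It read 8257 and 11501 units in HSC and 10265 and 8911 units in MPP, and the groups overlapped. The difference was 0.027 with a 95% interval of -0.37 to 0.42, and it turned to -0.21 with equal array medians or quantile normalization. Its other tested probe sets lay at -0.22, -0.17 and -0.64, none of them called. Hspa9, the mitochondrial HSP70, lay at -0.42 (limma adjusted p = 0.117), with both HSC arrays (1144 and 1305 units) below both MPP arrays (1620.0 and 1663). Its other tested probe sets lay at -0.51 and -0.54.

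The nucleotide exchange factors related to HSP70 gave 1 call. Hspa4 was called on 1 of its 4 tested probe sets, which read 419 and 567 against 877 and 767 units (log2 difference -0.74, SE 0.19, limma adjusted p = 0.0326). The probe set that stands for the gene lay at -0.30 (limma adjusted p = 0.305), and all 4 lay below 0. That call ended without HSC replicate 1, at -0.53 (adjusted p = 0.0660), with quantile normalization, at -0.65 (adjusted p = 0.0645), and without either MPP array. Hsph1, the inducible HSP110, read 407 and 633 units in HSC and 965 and 522 units in MPP, with the MPP arrays on either side of HSC replicate 2, and was not called (-0.48, limma adjusted p = 0.344). Hspa4l lay at -0.029 and Hspa13, an ER member of the family, at -0.33, both without a call. Hspa14, which works at the ribosome as partner of the J protein Dnajc2, was just outside the threshold at -0.57 (limma adjusted p = 0.0656). Hspa12b and Hspa2 were on the other side of 0, at 1.22 (limma adjusted p = 0.105) and 0.40 (limma adjusted p = 0.459).

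HSP90 was measured by Hsp90aa1, the inducible cytosolic form, and Hsp90b1, the ER form, and Hsp90ab1 was not analysed here. All 6 tested probe sets of these 2 genes lay below 0 with both HSC arrays under both MPP arrays (21.3% of all tested probe sets). Of the 6, 2 were called lower (33.3%, against 4.65% of all tested probe sets), both of Hsp90aa1. The probe sets that stand for the 2 genes were in the brightest class of mean level. In that class 59.5% of all probe sets lay below 0, 40.4% had both HSC arrays under both MPP arrays and 12.5% were called lower. Neither gene passed an unadjusted limma p of 0.05 on the probe set that stands for it. The first called Hsp90aa1 probe set read 1885 and 1836 units in HSC and 3341 and 3091 units in MPP (log2 difference -0.79, SE 0.15, limma adjusted p = 0.00649). The second read 2370.4 and 2249.7 against 3796 and 3071 units (log2 difference -0.56, SE 0.16, limma adjusted p = 0.0470). The probe set with the highest mean, which stands for the gene, read 2571 and 3614 against 3617 and 3993 units and was not called (-0.32, limma adjusted p = 0.318). HSC replicate 2 was the HSC array nearer to MPP on that probe set, and without HSC replicate 1 the median of both HSP90 genes was -0.10 instead of -0.31. Both Hsp90aa1 calls ended without either MPP array, and the second also with quantile normalization or a pseudocount of 1. Hsp90b1 read 767 and 975 units in HSC and 1055 and 1079 units in MPP and was not called (-0.30, limma adjusted p = 0.318).

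**Figure D2:**
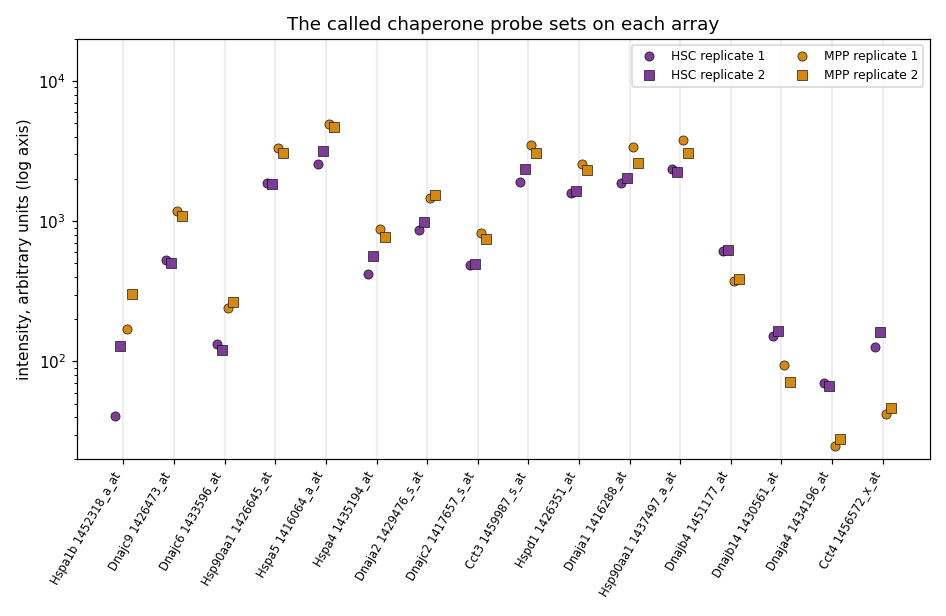
Intensity in arbitrary units, on a log axis, of the 16 called chaperone probe sets on each array, ordered by their log2 difference. Purple marks are the HSC arrays and orange marks the MPP arrays. The groups do not overlap for any of the 16, and the HSC arrays of Hspa1b lie furthest from each other, at 41.0 and 128 units.

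In mitochondria HSP60 forms the folding barrel and HSP10 its lid, and Hspd1 was called lower in HSC. Hspd1, which encodes HSP60, read 1582 and 1643 units in HSC and 2560.3 and 2332 units in MPP, with no overlap. It was 1.51-fold lower in HSC (log2 difference -0.60, SE 0.15, limma adjusted p = 0.0278). Hspe1, which encodes HSP10, read 701 and 796 units in HSC and 1145 and 1051 units in MPP and was just outside the threshold (-0.55, limma adjusted p = 0.0560). A dimmer Hspe1 probe set lay at -0.014. The Hspd1 call ended without MPP replicate 1 or 2, at -0.53 (adjusted p = 0.296) and -0.67 (adjusted p = 0.169).

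These genes are neighbours that face away from each other, and their shared promoter is shown because it carries the heat shock elements of the pair. Promoters were RefSeq windows of GRCm38.p6, from 250 bases before to 50 after an annotated start, with 68 of the 82 genes matched. The heat shock element, to which heat shock factors bind, was searched on both strands as GAA, TTC and GAA with 2 bases of any kind between them, and as its reverse complement. It was found for 4 of the 68 genes (5.88%), Hspd1, Hspe1, Hsph1 and Dnajb6, against 0.662% of 27025 genes of the table. Hspa8, Hspa9 and Hsp90aa1 were among the genes without a window and were not searched. Hspa1a, Hspa1b and Dnajb1 had no match to this fixed pattern, and looser forms of the element were not searched. A match is a description of letters and does not show binding. The 200 bases before the Hspe1 start (chr1:55087948-55088147, plus strand) hold 2 overlapping matches, given in capitals, and both also lie in the window of 1 of the 2 annotated Hspd1 starts, which is 216 bases from the Hspe1 start on the other strand:
Hspe1: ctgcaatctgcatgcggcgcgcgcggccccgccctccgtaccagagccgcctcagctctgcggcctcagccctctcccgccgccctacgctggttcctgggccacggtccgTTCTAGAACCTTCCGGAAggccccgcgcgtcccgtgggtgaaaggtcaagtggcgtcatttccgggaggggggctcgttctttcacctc

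Small HSPs, which hold clients without ATP, had the highest family median, at 0.52 over 6 tested genes that all lay above 0. The share of all genes above 0 was 57.7%. None was called by limma. Hspb6 and Hspb11 were higher at an unadjusted p under 0.05, as were 16.9% of all genes. None was in the brightest 10%, and both HSC arrays lay above both MPP arrays for 4 of the 6 (35.3% of all genes). The median of all probe sets was also above 0 at low signal, at 0.20 to 0.25 in the 4 dimmest of 10 equal classes of mean level. Hspb6 came nearest, with 55.8 and 63.4 units in HSC and 28.8 and 28.6 units in MPP (0.92, limma adjusted p = 0.0929). Hspb11, counted among the 6 by its symbol although it encodes a subunit of ciliary transport, followed at 0.64 (limma adjusted p = 0.107). Hspb1 lay at 0.39 and Hspb2 at 0.66. Hspb8 and Hspb7, at 0.16 and 0.068, turned below 0 with equal array medians or quantile normalization. Another tested Hspb8 probe set lay at 1.00 without a call. Of the proteins that bind HSPs, Hspbp1, an exchange factor of HSP70, lay at -0.29 (limma adjusted p = 0.406) and Hspbap1 at 0.11 (limma adjusted p = 0.888).

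Among the 4 DNAJA genes, cytosolic and mitochondrial partners of HSP70, 2 were called lower and 1 higher, against 5.9% and 7.71% of all genes. Dnaja2 read 870.3 and 981 units in HSC and 1469 and 1538 units in MPP, without overlap, and was 1.62-fold lower in HSC (log2 difference -0.70, SE 0.16, limma adjusted p = 0.0170). Its other tested probe sets disagreed, at -0.78, -0.057 and 0.45, none of them called. Dnaja1 read 1875 and 2039.5 units in HSC and 3376 and 2596 units in MPP (log2 difference -0.60, SE 0.17, limma adjusted p = 0.0471), and its 3 tested probe sets all lay below 0. Dnaja4 moved the other way, with 70.8 and 66.3 units in HSC and 24.97 and 27.9 units in MPP, and HSC signal was 2.30-fold higher (log2 difference 1.20, SE 0.31, limma adjusted p = 0.0315). The HSC arrays were close together and well above the MPP arrays, and a second Dnaja4 probe set lay at 0.63 without a call. The Dnaja4 call ended without any 1 of the 4 arrays (adjusted p from 0.0535 to 0.128). It also ended under quantile normalization and under equal array medians. Those of Dnaja1 and Dnaja2 ended without either MPP array, and that of Dnaja1 also with quantile normalization or a pseudocount of 1. Dnaja3, the mitochondrial member, lay at -0.049 (limma adjusted p = 0.906).

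The DNAJB genes held 2 of the 3 higher calls, among 10 tested genes (20%, against 7.71% of all genes). Dnajb4, a cytosolic partner of HSP70, read 616 and 619 units in HSC and 377 and 388 units in MPP. The replicates differed by little and the groups were apart, with HSC signal 1.60-fold higher than that in MPP (log2 difference 0.68, SE 0.17, limma adjusted p = 0.0263). Dnajb14, anchored in the ER membrane, read 153 and 164 units in HSC and 94.6 and 70.9 units in MPP, with HSC signal 1.87-fold higher than that in MPP (log2 difference 0.90, SE 0.24, limma adjusted p = 0.0378). The other tested probe sets lay at 0.54 and -0.082 for Dnajb4 and at 0.46 for Dnajb14, none of them called. Both lost their call without MPP replicate 2, at 0.70 (adjusted p = 0.155) and 0.71 (adjusted p = 0.266), and without MPP replicate 1, at 0.66 (adjusted p = 0.175) and 1.09 (adjusted p = 0.0546). Equal array medians ended both calls too. Dnajb14 also lost it without HSC replicate 2 and with quantile normalization. No DNAJB gene was called lower, against 5.9% of all genes. Dnajb11, a J protein of the ER lumen that works with Hspa5, came nearest at -0.66 (limma adjusted p = 0.0601), reading 152 and 168 units in HSC and 248 and 265 units in MPP. Dnajb9, a further ER partner of Hspa5, lay at 0.12 (limma adjusted p = 0.718) and turned to -0.12 with equal array medians. Dnajb13 lay at -0.24. Dnajb1, the stress-inducible J protein, lay at -0.35 (limma adjusted p = 0.184) and Dnajb6 at -0.32 (limma adjusted p = 0.245). Dnajb2, Dnajb5 and Dnajb12 were above 0, at 0.72, 0.91 and 0.42, with adjusted p of 0.129, 0.270 and 0.476.

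DNAJC proteins share little beyond the J domain and often have 1 task. Of 25 tested genes, 3 were called lower (12%, against 5.9% of all genes) and none higher (against 7.71%), and the median was -0.039. Dnajc9, which binds histones H3 and H4, read 531 and 500.0 units in HSC and 1179 and 1082 units in MPP. The HSC arrays were close together and far below the MPP arrays, and Dnajc9 was 2.18-fold lower in HSC (log2 difference -1.12, SE 0.16, limma adjusted p = 0.00154). It remained called without each array in turn, at -1.06 to -1.18. Dnajc6, auxilin, which strips clathrin from vesicles, read 133 and 120.2 units in HSC and 239 and 263 units in MPP (log2 difference -0.96, SE 0.21, limma adjusted p = 0.0139). A second Dnajc6 probe set lay at -1.44, just outside the threshold (limma adjusted p = 0.0501). Dnajc2, the ribosome-bound partner of Hspa14, read 488 and 499 units in HSC and 820.5 and 753 units in MPP (log2 difference -0.67, SE 0.16, limma adjusted p = 0.0268), and its other tested probe sets lay at -0.25 and -0.59. For both genes each HSC array lay below each MPP array. Both Dnajc6 and Dnajc2 lost their call without either MPP array, at -1.03 (adjusted p = 0.0567) and -0.89 (adjusted p = 0.121) for Dnajc6, and at -0.60 (adjusted p = 0.225) and -0.73 (adjusted p = 0.135) for Dnajc2.

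By the probe sets that stand for them, the other 22 DNAJC genes lay between -0.90 and 0.52. The ER members Dnajc3, Dnajc10 and Dnajc1 lay at -0.13, -0.21 and 0.17. Another Dnajc10 probe set lay at -0.99 (limma adjusted p = 0.0829), and the tested Dnajc1 probe sets lay on both sides of 0. Dnajc5, a vesicle protein, lay at -0.058, Dnajc8, a splicing protein, at 0.022 and the mitochondrial import protein Dnajc15 at -0.037. The other tested probe sets of Dnajc5 lay above 0, at up to 0.47, and that of Dnajc8 lay at -0.25. Dnajc7 lay at -0.54 (limma adjusted p = 0.145) and Dnajc13, an endosomal protein, at 0.32 (limma adjusted p = 0.328).

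**Figure D3:**
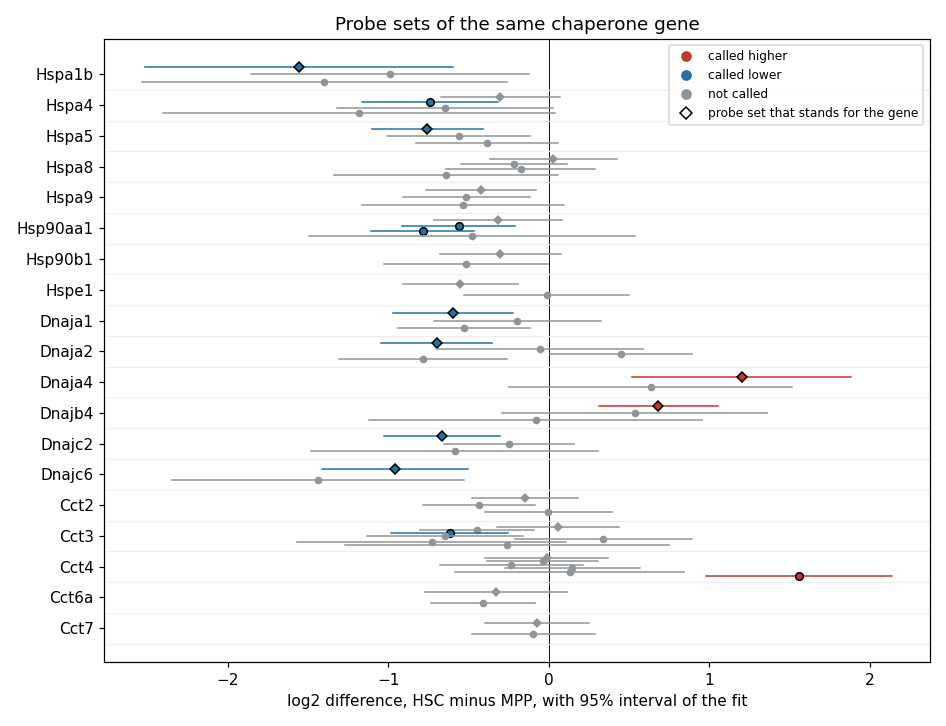
Log2 difference, HSC minus MPP, with the 95% interval of the fit, for each tested probe set of 19 chaperone genes, picked from the 43 with several. Of all 43, 19 had every tested probe set below 0 and 9 had every one above. Of those 9 only Dnaja4 is shown, and Dnajb14, called higher, is not. A diamond is the probe set that stands for the gene. All Hspa4, Hspa5, Hspa9 and Hsp90aa1 probe sets lie below 0, while those of Dnaja2, Cct3 and Cct4 lie on both sides.

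The CCT ring, which folds actin and tubulin, is built from 8 subunits, all of them measured (Tcp1, Cct2, Cct3, Cct4, Cct5, Cct6a, Cct7 and Cct8). By the probe sets that stand for the genes none was called by limma, and 2 were lower at an unadjusted p under 0.05, as were 11.8% of all genes. Their median was -0.22, 7 of 8 lay below 0 (42.3% of all genes and 59.5% of the brightest 10% of probe sets), and all were in the brightest 10% of probe sets. Cct8 had the lowest value, with 1143 and 875 units in HSC and 1514 and 1383 units in MPP (-0.53, limma adjusted p = 0.0843, 95% interval -0.92 to -0.14). Tcp1 read 3232 and 3602 units in HSC and 4522 and 4127 units in MPP (-0.34, limma adjusted p = 0.188) and Cct5 2934 and 3235 against 3703 and 3865 units (-0.30, limma adjusted p = 0.247). For these 3 subunits both HSC arrays lay below both MPP arrays, as they did for 23.4% of all genes, and for the other 5 the groups overlapped. Cct6a, Cct2 and Cct7 lay at -0.33, -0.15 and -0.075, with 95% intervals of -0.77 to 0.12, -0.48 to 0.18 and -0.40 to 0.25. Cct4 lay at -0.014 and Cct3 at 0.055. Cct4 and Cct7 turned above 0 with quantile normalization, and Cct3 turned below 0 with equal array medians.

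Single CCT probe sets were called in both directions. A Cct3 probe set read 1909 and 2372 against 3503 and 3046 units (log2 difference -0.62, SE 0.16, limma adjusted p = 0.0375), while the probe set that stands for Cct3 lay on the other side of 0. It lost its call when HSC replicate 1 or either MPP array was left out, at -0.46 (adjusted p = 0.0511), -0.52 (adjusted p = 0.336) and -0.72 (adjusted p = 0.150). A dim Cct4 probe set whose name ends in _x_at, which marks probes that can bind other transcripts, read 126 and 163 units in HSC and 42.3 and 46.9 units in MPP, so that HSC signal was 2.95-fold higher (log2 difference 1.56, SE 0.26, limma adjusted p = 0.00368). It was called in every alternative that tested it, while the 5 other tested Cct4 probe sets lay between -0.24 and 0.15 without a call. Of those 5, 3 have the same kind of name, among them the one that stands for Cct4, as do the probe sets that stand for Cct2 and Hspa8. No chaperone gene had probe sets called in both directions. Of 43 genes with several tested probe sets, 28 had all of them on 1 side of 0, 19 below and 9 above.

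The partners of these chaperones were read from lists of their own, against 5.9% of all genes called lower and 7.71% called higher. At an unadjusted limma p under 0.05 the shares of all genes were 11.8% lower and 16.9% higher. Of 28 tested co-chaperones of HSP70 and HSP90, 2 were lower and none higher, with a median of -0.14. They were Stip1, which hands clients from HSP70 to HSP90 (173 and 129.8 against 285 and 265 units, log2 difference -0.85, SE 0.22, limma adjusted p = 0.0304), and Grpel1, the exchange factor of the mitochondrial HSP70 (378 and 325 against 611 and 609.9 units, log2 difference -0.79, SE 0.17, limma adjusted p = 0.0161). Both calls ended without either MPP array, and that of Stip1 also without HSC replicate 2 and with no filter on dim probe sets. Of 14 prefoldin subunits and CCT cofactors none was called (1 higher and 1 lower at an unadjusted limma p under 0.05), with a median of -0.01. The smallest p there were those of Pfdn2 (-0.997, limma adjusted p = 0.0638) and Pfdn5 (0.53, limma adjusted p = 0.0890), on opposite sides of 0. Of 4 tested heat shock factor genes and partners none was called, also at an unadjusted limma p under 0.05. Hsf2 lay at 0.47 (limma adjusted p = 0.472) and Hsbp1 at -0.22 (limma adjusted p = 0.479). Of 11 mitochondrial proteases and import genes none was called either (1 lower at an unadjusted limma p under 0.05), with Tomm22 at -0.62 (limma adjusted p = 0.0779) and Yme1l1 at 0.40 (limma adjusted p = 0.259).

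ER folding enzymes and lectins had the lowest median of these lists, at -0.41, and 5 of 22 were called lower with none higher. Sdf2l1, an ER protein that works with Hspa5, read 5.71 and 3.07 units in HSC and 68.2 and 55.8 units in MPP. It was below the floor on both HSC arrays and at least 2.97-fold lower there (limma adjusted p = 0.00243), and with 1 MPP array left out its level was under the filter on dim probe sets. Pdia6, a disulfide isomerase, read 843 and 613 against 1436 and 1321 units (log2 difference -0.93, SE 0.18, limma adjusted p = 0.00942). Fkbp2, Manf and Erp29, all residents of the ER, lay at -1.30 (limma adjusted p = 0.0188), -0.70 (limma adjusted p = 0.0204) and -0.84 (limma adjusted p = 0.0312). Creld2 was just outside the threshold at -0.71 (limma adjusted p = 0.0502). The lectins Canx and Calr and the isomerase P4hb were not called, at -0.22, -0.51 and -0.36. The count was 9 with equal array medians, 3 with no filter on dim probe sets, 0 without MPP replicate 1 and 2 without MPP replicate 2. Of the 22, 9 were lower and 1 higher at an unadjusted limma p under 0.05, beside 11.8% and 16.9% of all genes. Canx, Calr, P4hb, Pdia6 and Manf were in the brightest 10% of probe sets, where 59.5% of all lay below 0 and 12.5% were called lower. With a prior variance not fitted to signal level, of the 5 called genes only Sdf2l1 stayed called (limma adjusted p = 0.0135).

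**Figure D4:**
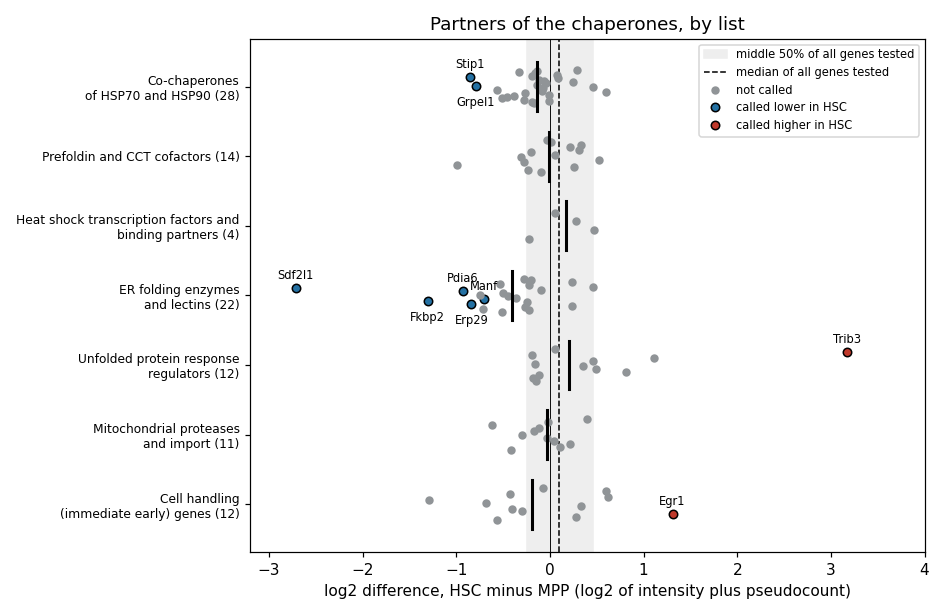
Log2 difference, HSC minus MPP, for the tested genes of 7 lists of chaperone partners, regulators and immediate early genes. The number of genes is in brackets. Black bars are list medians and the grey band holds the middle 50% of all genes tested. The ER folding list has a median of -0.41 with 5 genes called lower, and Trib3 lies at 3.17.

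Regulators of the unfolded protein response, which senses misfolded protein in the ER, were mostly not called. Of 12 tested, 1 was called higher and none lower (5 and 0 at an unadjusted limma p under 0.05, beside 16.9% and 11.8% of all genes), with a median of 0.21. The called gene was Trib3, with 159.5 and 163 units in HSC and 29.7 and 3.61 units in MPP (log2 difference 3.17, SE 0.51, limma adjusted p = 0.00281), and only 1 of the MPP arrays was above the floor. The difference was 4.12 without MPP replicate 1 and 2.23 without MPP replicate 2, so its size rests on which MPP array is used. Its probe set has a name ending in _x_at, and without probe sets so named the list had no call. The sensors Ern1 and Eif2ak3 lay at 0.36 (limma adjusted p = 0.280) and 0.50 (limma adjusted p = 0.170), the factors Xbp1 and Atf4 at 0.058 (limma adjusted p = 0.877) and -0.15 (limma adjusted p = 0.869), and Ddit3 at 0.81 (limma adjusted p = 0.0951). Atf4 read 502 and 1643 units on the HSC arrays, which lay on either side of both MPP arrays.

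The ER stress element, to which Atf6 and its partners bind, is shown for the 3 chaperone genes that hold it and for Pdia6, the called ER folding gene that does. It was searched on both strands as CCAAT and CCACG with 9 bases of any kind between them, and so contains a CCAAT box. It was found for 3 of the 68 chaperone genes (4.41%), Hspa5, Hsp90b1 and Dnajc3, against 0.137% of all genes of the table. Of 20 ER folding genes with a promoter 6 held it (30.0%), Pdia6, Canx, Calr, Creld2, Ero1b and Syvn1. Of the holders, Hspa5 and Pdia6 were called, at -0.76 and -0.93. The others lay on both sides of 0, with Hsp90b1 at -0.30, Dnajc3 at -0.13, Canx at -0.22, Calr at -0.51, Creld2 at -0.71, Ero1b at 0.24 and Syvn1 at 0.23. The CCAAT box was in a promoter of 42.6% of the chaperone genes and 41.1% of all genes, and the TATA box, searched as TATAAA, in 4.41% and 15.7%. The Hsp90b1 window held 2 matches to the ER stress element, 1 of them in the 200 bases printed. Each line gives the 200 bases before the start, 5′ to 3′ on the gene's strand in GRCm38.p6, with the element in capitals, which in Hsp90b1 reads on the other strand:
Hspa5 (chr2:34771890-34772089, plus strand): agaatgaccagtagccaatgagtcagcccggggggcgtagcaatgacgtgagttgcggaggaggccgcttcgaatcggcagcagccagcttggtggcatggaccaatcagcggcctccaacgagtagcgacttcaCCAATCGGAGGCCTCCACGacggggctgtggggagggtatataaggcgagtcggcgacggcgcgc
Hsp90b1 (chr10:86705445-86705644, minus strand): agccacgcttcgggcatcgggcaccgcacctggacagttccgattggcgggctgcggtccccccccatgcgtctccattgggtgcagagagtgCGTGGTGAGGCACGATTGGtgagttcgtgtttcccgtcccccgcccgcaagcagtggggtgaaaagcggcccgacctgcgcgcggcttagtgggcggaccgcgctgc
Dnajc3 (chr14:118937732-118937931, plus strand): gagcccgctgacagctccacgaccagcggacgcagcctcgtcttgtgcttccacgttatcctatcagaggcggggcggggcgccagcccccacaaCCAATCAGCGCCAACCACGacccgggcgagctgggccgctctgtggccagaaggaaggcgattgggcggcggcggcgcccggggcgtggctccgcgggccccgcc
Pdia6 (chr12:17266389-17266588, plus strand): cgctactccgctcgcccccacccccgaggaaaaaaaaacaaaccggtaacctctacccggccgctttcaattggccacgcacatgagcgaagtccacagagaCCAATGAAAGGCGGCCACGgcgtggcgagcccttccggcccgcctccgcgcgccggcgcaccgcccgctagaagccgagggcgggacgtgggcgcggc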

How the data were processed

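The data were 4 Mouse Genome 430 2.0 arrays, 2 of HSC and 2 of MPP. The values are linear intensities as the authors deposited them, made with software not given in the sources used here, and without detection calls. After leaving out 2% of values at each end, the mean was 99.9 to 100.0 on every array, so all arrays share 1 trimmed mean. Their medians differed by group, at 26.1 and 26.9 units in HSC and 22.0 and 21.3 units in MPP. Of 45101 probe sets, 64 controls were left out, 34945 had 1 gene symbol in the platform annotation, 932 several and 9160 none. All 201 chaperone probe sets matched a RefSeq gene of GRCm38.p6 and 0 symbols changed.

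Intensities were tested as log2(intensity + 6.01), a pseudocount of 0.25 times the median, after leaving out the dimmest 40%. Folds on this scale understate the change of dim genes. limma 3.58.1 in R 4.3.3 was used (lmFit, eBayes with trend, 2-sided, no covariates). With 2 residual degrees of freedom against 8.48 from the prior, most of each SE comes from probe sets of similar level. Replicates correlated at 0.949 (HSC) and 0.966 (MPP), Pearson's r over probe sets, and the number of arrays limits the precision. Amplification in 2 cycles favours 3' ends, which can affect probe sets of 1 gene unequally.

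The members and all gene lists were chosen with earlier results of these data known. Named genes were those called, the 3 with the smallest p of each family, all of families with 10 or fewer measured genes, the 3 brightest members and the 3 nearest outside the threshold, and from each partner list up to 2 called genes per direction, or the 2 with the smallest p. Further genes, including Fkbp2, Manf, Erp29 and called probe sets that do not stand for their gene, were chosen after their values were seen. Alternatives changed the pseudocount, filter, normalization, prior, probe sets, replicate block and arrays used.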

Additional observations from a re-analysis of the deposited data

How the results depend on the processing

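With 2 arrays a group, a lone array left in a group was assumed to vary like the other group. Leaving out each array in turn gave 1060 to 1931 probe sets called higher in HSC and 561 to 1897 lower, and among chaperones 1 to 4 probe sets higher, 1 to 29 lower, 0 to 3 genes higher and 1 to 14 lower. With no filter on dim probe sets the calls were 917 higher and 780.0 lower of all probe sets, 2 and 5 of chaperone probe sets, and 1 and 4 of chaperone genes. With equal array medians they were 1020.0 and 2379, 1 and 33, and 0 and 19. With no trend in the prior variance they were 633 and 374, 1 and 0, and 0 and 0. With quantile normalization 2 chaperone probe sets and 1 gene were higher, and with the mean of a gene's probe sets 1 gene. Without probe sets named _x_at, _s_at or _a_at 7 probe sets and 5 genes were lower. The cause of these changes was not tested beyond the lower number tested in the last of them.

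Differences of uncalled genes changed sign in places. With quantile normalization Cct4 was 0.016, Cct7 0.034, Hspa8 -0.21, Hspb7 -0.15, Hspb8 -0.050 and Hspbap1 -0.062. With equal array medians Cct3 was -0.18, Dnajb9 -0.12, Hspa8 -0.21, Hspb7 -0.16, Hspb8 -0.072 and Hspbap1 -0.12. Without the named kinds of probe set Cct3 was -0.73 and Hspa8 -0.64, and with the mean over probe sets Cct3 was -0.33, Cct4 0.26, Dnaja3 0.24 and Hspa8 -0.25. Over the arrays left out, Cct3 ranged from -0.12 to 0.23, Cct4 from -0.21 to 0.18, Dnaja3 from -0.19 to 0.095, Dnajb9 from -0.00113 to 0.23, Hspa8 from -0.21 to 0.27, Hspb7 from -0.28 to 0.42, Hspb8 from -0.18 to 0.50, Hspbap1 from -0.41 to 0.63 and Dnajb13 from -0.56 to 0.47.

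Over all probe sets the replicate differences of the groups correlated at 0.027, so the replicate numbers were not taken to pair the samples, although replicate 2 was above replicate 1 in both groups for 11 of 12 immediate early genes and for Hspa1b. With the replicate block 2525 probe sets were called higher and 1833 lower, and of the chaperone probe sets 5 and 22.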
